A study of Rattus norvegicus with 30 samples.

Results

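Fos, Fosb, Junb, Atf3, Egr1, Nr4a1, Dusp1 and Arc are immediate early genes, followed here in 30 bulk RNA-seq libraries from the median nerve of the rat forelimb. They were taken by Ensembl ID, 8 of the 32545 IDs in the count table: Fos is ENSRNOG00000008015, Fosb ENSRNOG00000046667, Junb ENSRNOG00000042838, Atf3 ENSRNOG00000003745, Egr1 ENSRNOG00000019422, Nr4a1 ENSRNOG00000007607, Dusp1 ENSRNOG00000003977 and Arc ENSRNOG00000043465. All 8 were present and passed the filter on low counts that left 16015 genes. They were chosen because Fos and Arc were higher at day 21 after delayed repair. Levels, differences and correlations that use a day 21 library are therefore given as a description and without a test. The other 6 genes were taken as partners of these, and their day 21 values are treated in the same way.

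In adult female wild-type rats the nerve was transected, and a chitosan tube of 10 mm bridged the 8 mm between the stumps. In immediate repair the tube was placed at injury (4, 4 and 5 samples at days 7, 14 and 21 after repair). In delayed repair it was placed 3 months after injury (5, 4 and 3 samples at days 7, 14 and 21). Control nerve was healthy and untreated (5 samples, listed as day 0). Tissue from repaired nerves had grown inside the tube, so it is a mixture of whatever cells had entered, and in such bulk samples fewer cells of a type and less RNA per cell cannot be told apart. The labels number the replicates without saying that each came from its own animal, give no batch, and give no time between collection and freezing. The p-values below therefore measure the spread between these samples, which may be partly technical.

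Immediate early genes are transcribed within minutes of a stimulus reaching a cell, by factors already present, and most of their messages decay quickly. Signals through MAP kinase and through calcium and cyclic AMP reach their promoters by way of the serum response factor, which binds the CArG box, and of CREB, which binds the cyclic AMP response element (CRE). Fos and Fosb proteins pair with Jun proteins such as Junb to form the AP-1 transcription factor, and Atf3, a related factor, is a classic injury-induced gene of Schwann cells and axotomized neurons. Egr1 is a zinc finger transcription factor, Nr4a1 an orphan nuclear receptor, and Dusp1 a phosphatase that switches MAP kinases off. Arc binds the cytoskeleton and endocytic machinery and is best known from synapses.

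RefSeq promoter windows (assembly GRCr8) were found for 5 of the 8 genes, Fosb, Junb, Egr1, Nr4a1 and Dusp1, and their 250 bases upstream of the gene's start were searched for the response elements named above. The searches used the full CRE TGACGTCA, its core TGACG and the AP-1 site TGANTCA, on both strands, and the CArG box, which reads the same on both. A full CRE also holds the core on each strand. The core was present in 4 of the 5 windows, against 18.2% of 33469 RefSeq windows of that length. A full CRE was present in the Dusp1 window and in 1.59% of all windows. The Egr1 window held 2 CArG boxes, a motif in 1.5% of all windows, and the AP-1 site, present in 6.34%, was in none of the 5. These are matches of letters only. The windows of Junb, Nr4a1 and Dusp1 are shown as 3 of those that hold the core, each from 5′ to 3′ on the gene's strand, with the matches in capitals (CGTCA is the core read on the other strand).
Junb, chr19:40080876-40081125, plus strand: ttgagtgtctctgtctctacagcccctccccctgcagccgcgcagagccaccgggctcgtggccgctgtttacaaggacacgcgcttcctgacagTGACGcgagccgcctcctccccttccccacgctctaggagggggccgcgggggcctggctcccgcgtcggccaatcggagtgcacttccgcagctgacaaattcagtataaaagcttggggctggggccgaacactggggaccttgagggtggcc
Nr4a1, chr7:134259888-134260137, plus strand: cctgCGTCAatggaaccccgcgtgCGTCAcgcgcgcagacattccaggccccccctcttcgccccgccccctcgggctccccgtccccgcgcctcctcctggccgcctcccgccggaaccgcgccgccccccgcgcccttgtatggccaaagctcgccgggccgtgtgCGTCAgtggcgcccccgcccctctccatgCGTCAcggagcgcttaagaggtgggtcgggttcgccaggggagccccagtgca
Dusp1, chr10:17184603-17184852, plus strand: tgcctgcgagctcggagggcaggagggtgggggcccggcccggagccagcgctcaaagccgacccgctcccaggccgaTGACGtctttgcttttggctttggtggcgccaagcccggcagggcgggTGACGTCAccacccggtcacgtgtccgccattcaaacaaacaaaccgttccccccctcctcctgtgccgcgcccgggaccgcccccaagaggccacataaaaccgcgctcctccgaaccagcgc

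Total counts per library lay between 11958242 and 17334752. Levels are given as CPM, the gene's count per 10 to the power 6 counts of the library, with library sizes scaled by TMM factors. They are not divided by gene length, so levels are compared between samples for one gene and not between genes. Together the 8 genes took 0.183% to 0.688% of all counts in the 3 delayed day 21 libraries and 0.0397% to 0.255% in the other 27. Delayed day 7 replicate 5 stood apart in the series: it held 183 genes, each over 5 CPM, at more than 10-fold the level of the next highest library, and these took 10.98% of its counts. Delayed day 21 replicate 2 held 3 such genes, which took 1.69% of its counts, the next largest share. None of the 8 is among the genes of either library. Without delayed day 7 replicate 5 no call of delayed day 7 against control changed (Junb 2.28, Nr4a1 -2.63), except that Atf3, at 1.09, was called too.

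Fos, the AP-1 subunit by which the set was chosen with Arc, varied widely within groups. In control nerve it measured 19.2, 321, 176, 114 and 49.7 CPM in replicates 1 to 5, a 16.8-fold span within healthy tissue. After immediate repair it measured 38.3, 194, 57.2 and 97.4 CPM at day 7, and 23.9, 39.3, 81.4 and 24.0 CPM at day 14. At day 21 of that repair the values were 23.5, 32.6, 48.1, 49.7 and 50.4 CPM, the group with the smallest SD for this gene. Delayed repair gave 501, 36.2, 93.9, 95.3 and 35.9 CPM at day 7, with replicate 1 far above the rest, and 78.4, 91.6, 93.2 and 156 CPM at day 14. At day 21 of delayed repair Fos measured 809.7, 1585 and 279 CPM. All 3 of these lay above the highest immediate day 21 library, but replicate 3, at 279 CPM, was below control replicate 2 and delayed day 7 replicate 1. By group mean the order was delayed day 21 (891 ± 656, SD, n = 3), delayed day 7 (153 ± 197, n = 5), control (136 ± 120, n = 5), delayed day 14 (105 ± 35.0, n = 4), immediate day 7 (96.8 ± 69.6, n = 4), immediate day 14 (42.1 ± 27.2, n = 4) and immediate day 21 (40.9 ± 12.1, n = 5). Every pair of neighbours in that order had overlapping ranges.

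Fosb, whose protein takes the place of Fos in AP-1, was raised in single libraries of several groups. It measured 5.55, 139.7, 85.3, 34.1 and 13.2 CPM in control nerve. At day 7 no library exceeded 31.3 CPM, with 2.80 to 17.7 CPM after immediate and 3.44 to 31.3 CPM after delayed repair. At day 14 it measured 23.5, 19.8, 209 and 7.21 CPM after immediate and 8.75, 349, 30.3 and 55.2 CPM after delayed repair. A single library thus held most of the group's signal in each repair. At day 21 it measured 10.5, 55.2, 5.67, 5.42 and 4.67 CPM after immediate and 537, 937 and 131 CPM after delayed repair.

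Junb, the Jun-family partner, had another order of groups, with day 7 tissue next to delayed day 21. Control nerve measured 35.3, 169.8, 99.7, 90.1 and 44.9 CPM. Day 7 values were 228, 235, 322 and 1405 CPM after immediate repair and 1005, 207, 231, 271 and 142 CPM after delayed repair. One library of each repair stood well above its group, and the other day 7 libraries after immediate repair still lay above every control. At day 14 Junb ranged from 108 to 199.6 CPM after immediate and from 140.2 to 253 CPM after delayed repair. At day 21 it ranged from 88.5 to 204 CPM after immediate repair and measured 492, 837 and 416 CPM after delayed repair.

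Atf3 was the least variable of the 8 within delayed day 21, at 164, 234 and 189 CPM. Its other groups overlapped widely. Control nerve ranged from 33.4 to 132 CPM, immediate repair from 86.9 to 149 at day 7, from 19.1 to 107 at day 14 and from 42.0 to 113 at day 21. After delayed repair it ranged from 61.7 to 260.1 CPM at day 7 and from 36.2 to 118 CPM at day 14. Only delayed day 7 replicate 1, at 260.1 CPM, lay above the lowest delayed day 21 library.

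Egr1, the zinc finger factor, measured 70.6, 712, 256, 260.3 and 125 CPM in control nerve, where its highest library was again replicate 2. Immediate repair gave 54.7 to 296 CPM at day 7, 83.1 to 254 CPM at day 14 and 49.4 to 162 CPM at day 21. Delayed repair gave 316, 18.9, 101, 98.5 and 55.5 CPM at day 7 and an even 177, 271, 228 and 209 CPM at day 14. At day 21 of delayed repair the values were 736, 1304 and 382 CPM, and of the other 27 libraries control replicate 2 alone exceeded the lowest of them.

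Nr4a1, the orphan receptor, and Dusp1, the MAP kinase phosphatase, had control nerve as their second highest group, as did Egr1. Nr4a1 measured 165, 476, 267, 255 and 239 CPM in control nerve, but 22.2, 26.2, 12.4 and 67.1 CPM at day 7 of immediate repair and 102, 5.87, 21.5, 51.3 and 70.4 CPM at day 7 of delayed repair. No day 7 library reached the lowest control. At day 14 it measured 52.1, 44.6, 436 and 43.1 CPM after immediate and 28.0, 314, 85.3 and 85.2 CPM after delayed repair, and at day 21 it ranged from 31.4 to 192 CPM after immediate repair. Its 3 delayed day 21 values, 600.1, 905 and 217 CPM, lay above all controls in replicates 1 and 2 and, in replicate 3, below 4 of the 5.

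Dusp1 measured 107, 417, 317, 317 and 169.9 CPM in control nerve. After immediate repair it ranged from 47.4 to 274 CPM at day 7, from 41.1 to 99.5 CPM at day 14 and from 52.8 to 87.2 CPM at day 21. No library of immediate repair at days 14 and 21 reached the lowest control. After delayed repair it measured 690.2 CPM in replicate 1 and 48.6 to 88.1 CPM in the other 4 libraries at day 7. The day 14 libraries lay close together at 93.3 to 119 CPM, and day 21 measured 544, 851 and 249 CPM.

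Arc, the cytoskeletal protein gene, was the lowest in counts and the most even in control nerve, at 4.10, 5.31, 6.14, 7.48 and 8.26 CPM. At day 7 of immediate repair it measured 0.643, 0.608, 2.31 and 0 CPM. These are 10, 8, 33 and 0 counts, and a count of 0 allows up to 0.270 CPM in that library, for counting error only. Day 7 of delayed repair gave 4.41, 1.13, 1.65, 4.03 and 1.63 CPM. At day 14 the values were 5.49, 1.44, 11.5 and 1.56 CPM after immediate and 4.22, 11.6, 4.72 and 7.66 CPM after delayed repair. At day 21 Arc measured 1.42, 8.54, 2.66, 1.52 and 2.62 CPM after immediate and 86.2, 97.1 and 12.7 CPM after delayed repair. Arc alone of the 8 had all 3 delayed day 21 libraries above all 27 others, although replicate 3, at 12.7 CPM, was close to the highest day 14 library at 11.6 CPM.

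**Figure D1:**
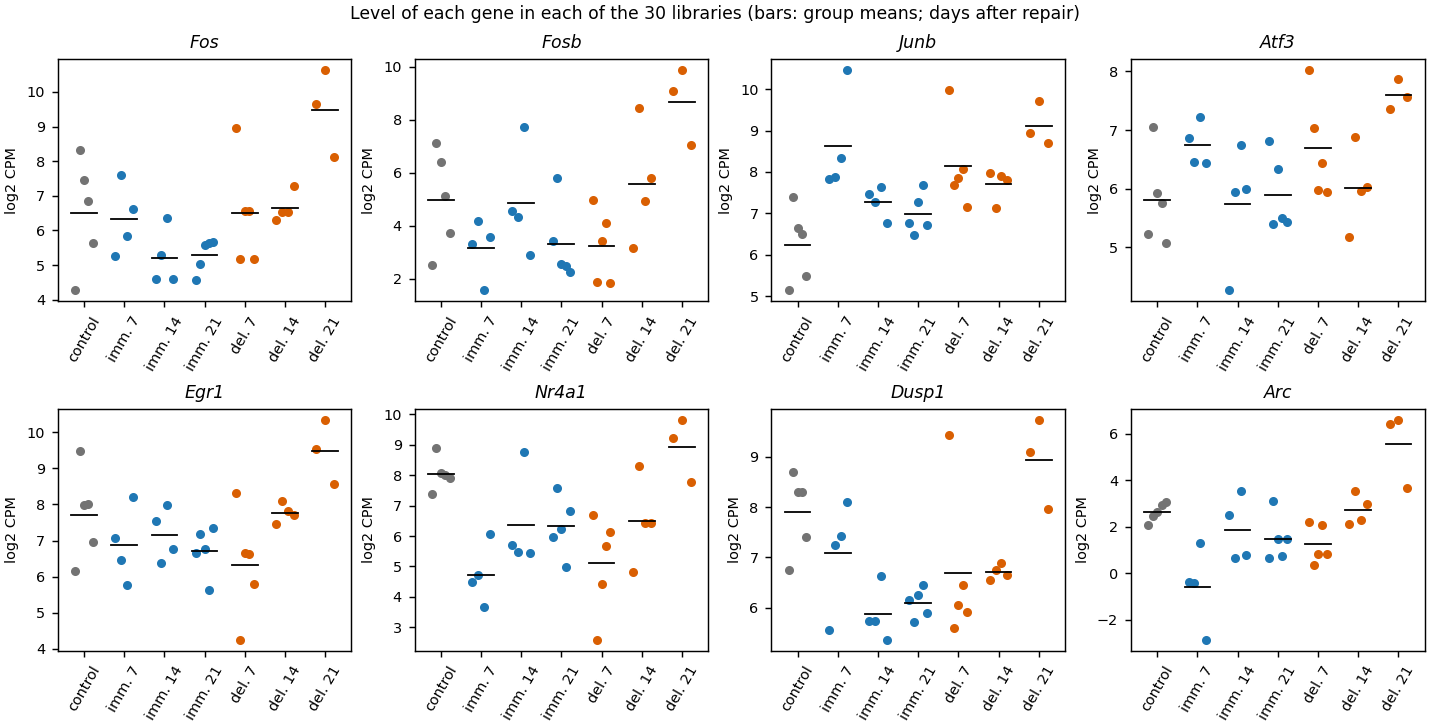
Level of each gene in log2 CPM (vertical axes, prior count of 2) in each of the 30 libraries, by group (horizontal axes; imm., immediate repair, del., delayed repair, with the day after repair). Points are libraries and bars are group means; the lowest Arc point, at day 7 of immediate repair, is a library with 0 counts, and the delayed day 21 points are the highest as a group in all 8 panels.

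The same libraries were high for several genes at once. Control replicate 2 was the highest of the 5 controls for 7 of the 8 genes, the exception being Arc, and control replicate 1 was the lowest for 7, the exception being Atf3. Delayed day 7 replicate 1, immediate day 14 replicate 3 and delayed day 21 replicate 2 were each the highest of their group for all 8 genes. Delayed day 14 replicate 2 was the highest for 5 genes, Fosb, Atf3, Egr1, Nr4a1 and Arc, and delayed day 14 replicate 1 the lowest for 7. Within delayed day 21, replicate 3 was the lowest for 7 genes, so the 3 libraries of that group kept almost one order. At day 7 and day 21 of immediate repair no library was highest for more than 4 genes. The labels give no property of these libraries that sets them apart.

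**Figure D2:**
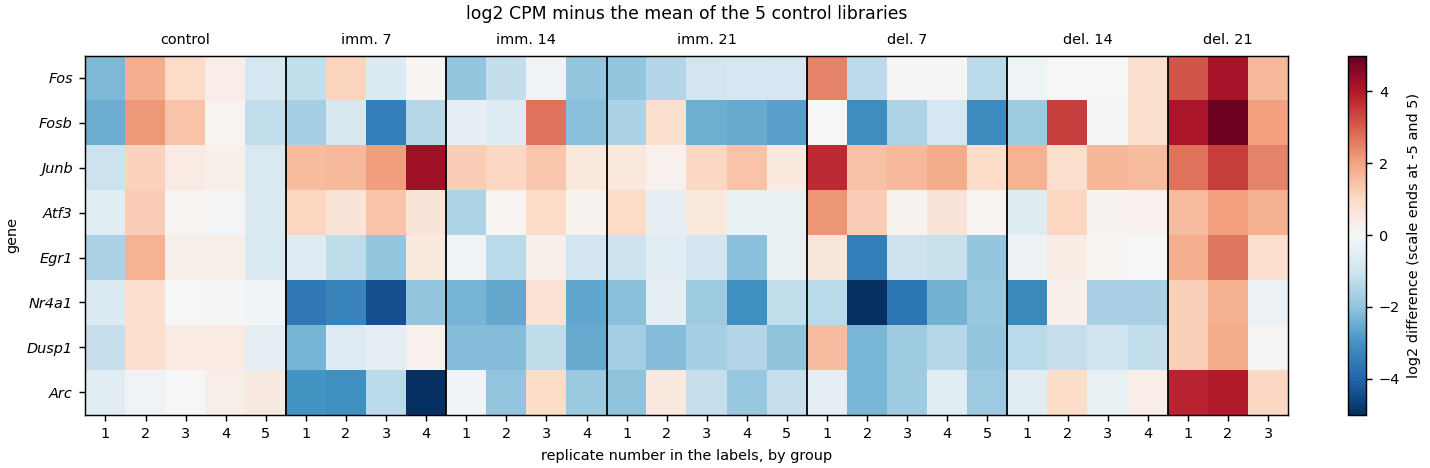
Difference of each library (columns, by group and replicate number) from the mean of the 5 control libraries, in log2 CPM, for each gene (rows); red is higher and blue lower than control. All rows are red in delayed day 21 replicates 1 and 2 and all but Arc in control replicate 2, and Nr4a1 and Arc are blue throughout day 7.

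How closely the genes moved together was measured outside day 21, in the 22 libraries that the choice of genes did not use, as the deviation of each library's log2 CPM from its group mean. Deviations of Dusp1 followed those of Fos most closely, with a Pearson r of 0.843 and a Spearman rho of 0.827. The AP-1 subunit Fosb followed Fos with r = 0.744 (rho 0.758), Junb with r = 0.718 (rho 0.70) and Egr1 with r = 0.761 (rho 0.613). Atf3 (r = 0.570, rho 0.440) and Nr4a1 (r = 0.522, rho 0.552) followed less closely. Arc hardly followed, with r = 0.250 and rho 0.246. Over all other tested genes the median r with Fos was -0.0564. The share of them with r at least that of Dusp1 was 0.00624%, which is Dusp1 alone, as each share counts the named gene itself. It was 1.86% for the r of Nr4a1 and 16.3% for that of Arc. Delayed day 7 replicate 1 and control replicate 1 lay farthest from the median Fos deviation. Without them r was 0.76 for Dusp1, 0.70 for Fosb, 0.627 for Egr1, 0.559 for Junb, 0.454 for Nr4a1, 0.432 for Atf3 and 0.124 for Arc. Points of one group share a mean, so the 22 deviations are not fully independent, and no test was made.

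**Figure D3:**
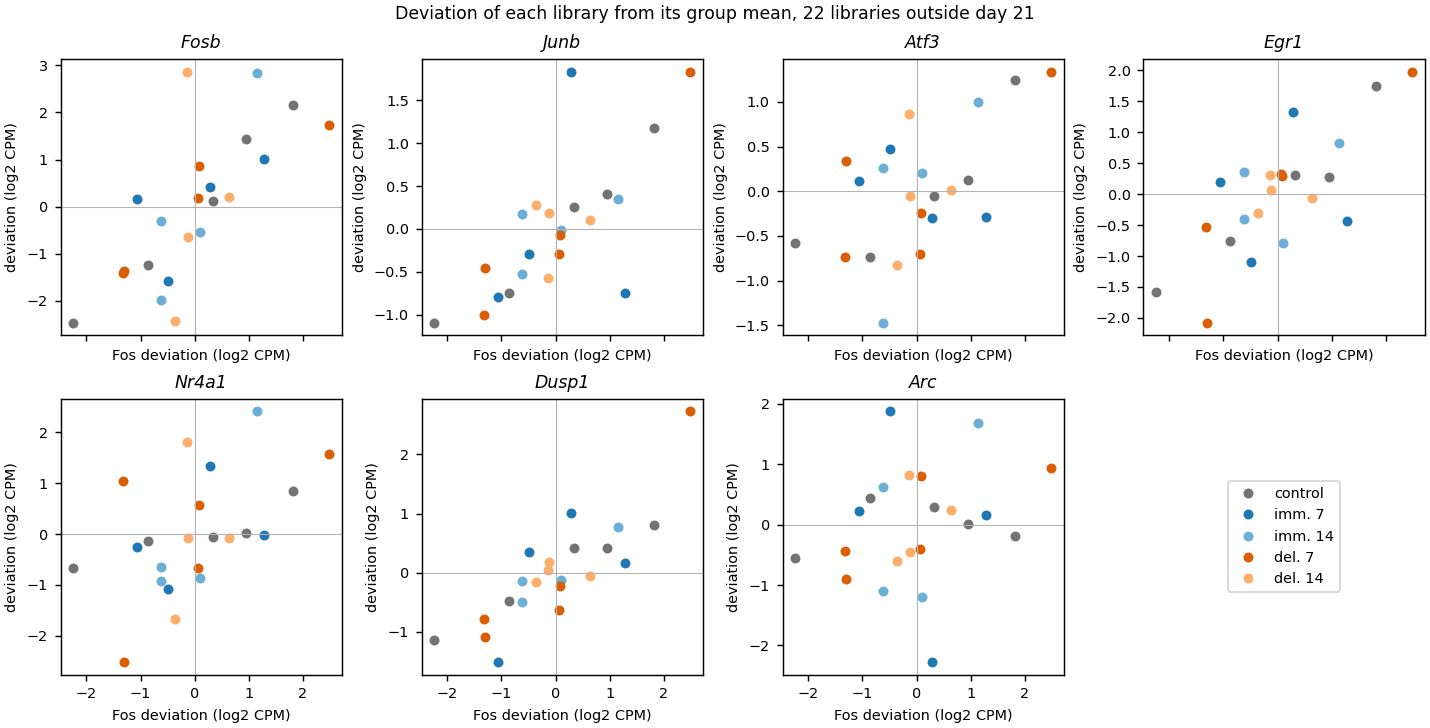
Deviation of each library from its group mean in log2 CPM, for Fos (horizontal axes) against each of the other 7 genes (vertical axes), in the 22 libraries outside day 21, colored by group. Dusp1 rises with Fos most closely (r = 0.843), while Arc shows little relation (r = 0.250).

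Delayed and immediate repair were compared at days 7 and 14, whose libraries the choice of genes did not use. Each gene's spread was estimated from all 30 libraries, so the day 21 libraries still enter the p-values of the main fit. The question is whether these genes differ after a wait of 3 months before repair. None of the 8 was called at either day (quasi-likelihood test of edgeR, p adjusted over 16015 genes by the Benjamini-Hochberg method, threshold 0.05), where 0.712% of all genes were called at day 7 and 0% at day 14. The day 7 share, 114 genes, moved with the setting: it was 341 genes in DESeq2, 0 in limma voom and 1 gene without delayed day 7 replicate 5, the library that stood apart. Without immediate day 7 replicate 1, 3 or 4 it was 0. None of the 8 reached an unadjusted edgeR p under 0.05 at either day, as 8.44% of all genes did at day 7 and 1.52% at day 14. DESeq2, limma voom and the other fits likewise called none of the 8. At day 7 the log2 fold changes, delayed over immediate, ran from -0.56 for Junb to 1.48 for Arc (SE 0.78, edgeR adjusted p = 0.681). Without immediate day 7 replicate 3 Arc stood at 2.53 (edgeR adjusted p = 0.285). The sign at day 7 turned for Fos, Fosb, Atf3 and Dusp1 without delayed day 7 replicate 1, taking Fos from 0.65 to -0.57 and Dusp1 from 0.24 to -1.29, and for Dusp1 also without immediate day 7 replicate 1. Likewise Junb and Egr1 turned without immediate day 7 replicate 4, to 0.50 and 0.35.

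At day 14 the fold changes ran from -0.17 for Nr4a1 to 1.32 for Fos (SE 0.78, edgeR adjusted p = 1), and 7 of the 8 were above 0, beside 48.7% of all genes. The median of the 8 was 0.49, and that of all genes -0.01. Libraries tended to be high for several of these genes at once, so the 8 signs are not independent. Without delayed day 14 replicate 2, Fosb (-1.04), Atf3 (-0.20) and Nr4a1 (-1.12) were below 0, and 5 of the 8 above it. Intervals were wide: at day 14 the 95% interval for Fos ran from -0.28 to 2.91 and that for Arc from -1.01 to 2.00 on the log2 scale. The test does not show that the repairs were alike. Whether the difference between the repairs changed from day 7 to day 14 was tested as an interaction, and none of the 8 genes passed (edgeR, 0% of all genes called, none of the 8 and 5.18% of all genes at an unadjusted p under 0.05).

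At day 21, where Fos and Arc were selected, the differences are a description. The fitted log2 difference, delayed over immediate repair, was 4.45 for Fos, 4.27 for Arc, 5.03 for Fosb, 2.98 for Dusp1, 2.83 for Egr1, 2.60 for Nr4a1, 2.14 for Junb and 1.60 for Atf3. The 3 delayed libraries did not overlap the 5 immediate ones for any of the 8 genes, all in the higher direction, as was so for 2.19% of all genes tested. Without delayed day 21 replicate 2, the highest for all 8 genes, the differences ranged from 1.45 for Atf3 to 4.35 for Fosb, with Fos at 3.74 and Arc at 3.87. Without immediate day 21 replicate 2, the highest of its group for Fosb, Nr4a1 and Arc, those of Fosb and Arc were 6.35 and 4.98.

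**Figure D4:**
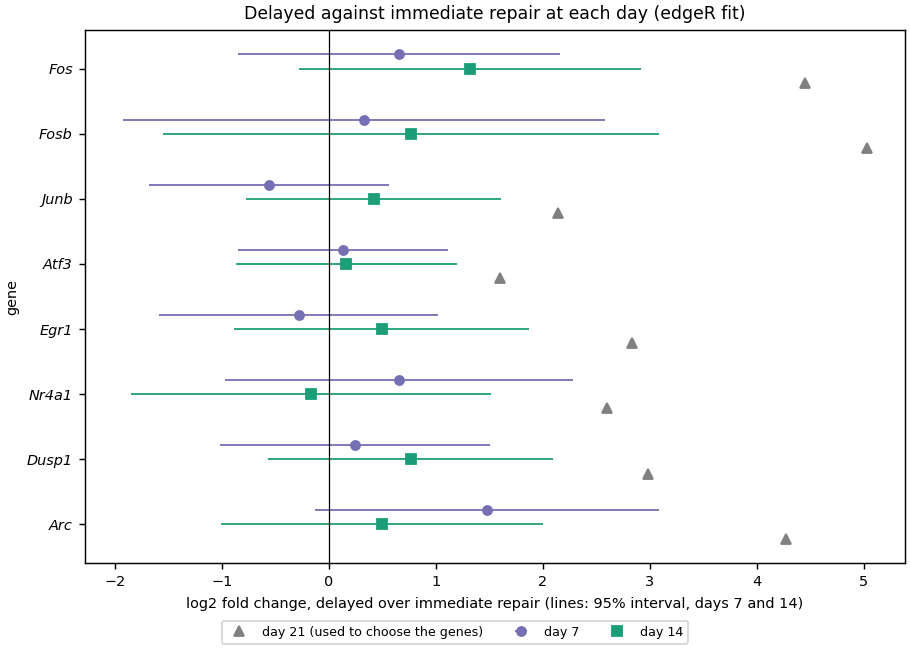
Log2 fold change of delayed over immediate repair (horizontal axis) for each gene (vertical axis) at day 7, day 14 and day 21, from the edgeR fit. Lines are 95% intervals for days 7 and 14, each of which includes 0; the day 21 triangles are shown without an interval because the genes were chosen on that day's libraries.

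Set against control nerve, the fitted day 21 levels of the repairs lay on different sides for several genes, again as a description. Most of the libraries behind them overlapped control. After immediate repair the fitted log2 difference from control was -1.94 for Dusp1, -1.77 for Fosb, -1.74 for Fos, -1.57 for Nr4a1, -1.33 for Egr1 and -0.89 for Arc, with 0.59 for Junb and 0.02 for Atf3. Only Dusp1 did not overlap control, in the lower direction, which held for 22% of all genes. After delayed repair it was 3.38 for Arc, 3.27 for Fosb, 2.72 for Junb, 2.71 for Fos, 1.62 for Atf3, 1.5 for Egr1, 1.05 for Dusp1 and 1.03 for Nr4a1. Arc, Junb and Atf3 did not overlap control, in the higher direction, as 26.3% of all genes did. The repairs share these control libraries. From day 14 to day 21 of delayed repair all 8 genes were at least 2-fold higher (4.66% of all genes were), and 6 did not overlap, with Fosb and Nr4a1 the exceptions (3.49% of all genes did not overlap in that direction).

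Against control nerve at day 7, Junb rose and Nr4a1 fell after both repairs, and Arc fell after immediate repair. Immediate repair called 3 of the 8 genes, 1 higher and 2 lower, beside 65.2% of all genes tested (30.2% higher and 35% lower). Junb was 6.22-fold higher (log2 2.64, SE 0.56, edgeR adjusted p = 0.000237), with all 4 day 7 libraries above all 5 controls. Without immediate day 7 replicate 4, at 1405 CPM, its log2 change was 1.57 (edgeR adjusted p = 0.00758). Nr4a1 fell by 3.13 on the log2 scale (SE 0.87, edgeR adjusted p = 0.00273) and Arc fell by 2.77 (SE 0.80, edgeR adjusted p = 0.00368), both without overlap. Groups did not overlap in the higher direction for 24.3% and in the lower for 31.7% of all genes. Without immediate day 7 replicate 3 Arc stood at -3.82, and without replicate 4 Nr4a1 stood at -3.79. Fosb stood at a log2 change of -2.41 (edgeR adjusted p = 0.0711), Egr1 at -0.99, Dusp1 at -0.72, Fos at -0.49 and Atf3 at 0.79, none of which passed. DESeq2 put the adjusted p of Fosb at 0.0234, and Fosb was also called without control replicate 1 and in the fit of the compared groups alone. Egr1 was called without immediate day 7 replicate 4 (-1.62) and Atf3 without control replicate 2 (1.25).

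Delayed repair at day 7 called 2 of the 8 against control, beside 64.4% of all genes. Junb was 4.22-fold higher (log2 2.08, SE 0.54, edgeR adjusted p = 0.00158), with 1 of the 5 libraries inside the control range, and Nr4a1 fell by 2.48 (SE 0.77, edgeR adjusted p = 0.00686) without overlap, as 26.8% of all genes did not in the lower direction. Arc stood at -1.29 (edgeR adjusted p = 0.0971), Egr1 at -1.27 (edgeR adjusted p = 0.0696) and Fosb at -2.08 (edgeR adjusted p = 0.0857), and Fos at 0.16. Atf3 stood at 0.92 and did not pass. Atf3 and Egr1 were each called in 3 of the 10 fits that left out 1 library. Much turned on delayed day 7 replicate 1. Without it 5 genes were called: Junb at 1.27, Nr4a1 at -2.91, Fosb at -2.68, Egr1 at -2.06 and Dusp1 at -2.01 (edgeR adjusted p of Dusp1 0.000227, against 0.479 with it), and Fos stood at -1.06. DESeq2 and limma voom each called 4 of the 8. None of the 8 genes passed the direct test between the repairs at day 7, so Arc is not shown to differ between them.

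At day 14 fewer of the 8 genes stood apart from control. After immediate repair Dusp1 fell by 2.10 on the log2 scale (SE 0.65, edgeR adjusted p = 0.00865), with no overlap (26.4% of all genes in that direction), the only call of the 8 beside 51.4% of all genes. Fos stood at -1.69 (edgeR adjusted p = 0.0644). DESeq2 called Fos as well as Dusp1, and limma voom Nr4a1 as well as Dusp1. Leaving out immediate day 14 replicate 3, the highest for all 8 genes, gave 3 calls, Dusp1 at -2.43, Nr4a1 at -2.59 and Fos at -2.23. Leaving out control replicate 1 or 5 gave 2, Dusp1 and Fos. After delayed repair none of the 8 was called by edgeR, beside 51.9% of all genes, with Junb at 1.28 (edgeR adjusted p = 0.0525) and Dusp1 at -1.34 (edgeR adjusted p = 0.0779) nearest. At an unadjusted edgeR p under 0.05 there were 2, Junb and Dusp1, beside 57% of all genes. DESeq2 and the fit of the compared groups alone each called 2, Junb and Dusp1, and limma voom 3, these and Nr4a1. Junb was the only call without control replicate 2 or without delayed day 14 replicate 2.

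From day 7 to day 14 of immediate repair Junb fell by 1.77 (SE 0.59, edgeR adjusted p = 0.0235) and Arc rose by 2.45 (SE 0.81, edgeR adjusted p = 0.0221), 2 of 8 called beside 33.7% of all genes. Nr4a1 stood at 2.17 (edgeR adjusted p = 0.0511) and Fosb at 2.63 (edgeR adjusted p = 0.0923), while Fos stood at -1.20 and Dusp1 at -1.39. The call of Junb was lost without immediate day 7 replicate 4 (log2 -0.71) or immediate day 14 replicate 4. That of Arc was lost without immediate day 14 replicate 3 (1.63), immediate day 7 replicate 2 or immediate day 7 replicate 4. Nr4a1 was called without immediate day 14 replicate 1, 2 or 4 and without immediate day 7 replicate 4, and Dusp1 without immediate day 7 replicate 1 (-1.69). Without immediate day 7 replicate 4, Nr4a1 was the only call, at 2.83. DESeq2 called Fosb and Nr4a1 as well, 4 genes in all, and limma voom and the fit of the compared groups alone none. After delayed repair Fosb rose by 3.07 (SE 1.12, edgeR adjusted p = 0.0353), the only call beside 34.7% of all genes. That call rested on delayed day 14 replicate 2, at 349 CPM. Without it the change was 1.26 (edgeR adjusted p = 0.378), and it was also lost without delayed day 7 replicate 2, 3, 4 or 5. Without delayed day 7 replicate 1, Fosb and Egr1 were called, Egr1 at 1.69.

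The genes whose levels over the 30 libraries were most like those of Fos were looked for among the 12472 genes that averaged 1 or more in log2 CPM, by the Pearson r of log2 CPM. The groups differ in mean, and the day 21 libraries used for the choice are included, so r is a description. Dusp1 was the closest of all (r = 0.866, and 0.784 over the 22 libraries outside day 21). Next came 2 genes outside the set, ENSRNOG00000026293 (r = 0.858, and 0.731 outside day 21) and ENSRNOG00000054344 (r = 0.818, and 0.690 outside day 21). Egr1 ranked 7 (r = 0.762), Fosb 8 (r = 0.729), Atf3 17 (r = 0.636), Junb 18 (r = 0.634), Arc 26 (r = 0.559) and Nr4a1 31 (r = 0.529). Outside day 21 these were lower: r was 0.615 for Egr1, 0.548 for Fosb, 0.525 for Atf3, 0.467 for Junb, 0.335 for Nr4a1 and 0.166 for Arc. ENSRNOG00000026293 measured 529 ± 282 CPM (SD, n = 3) at day 21 of delayed repair, and its other group means lay between 178 and 243 CPM. ENSRNOG00000054344 measured 272 ± 158 CPM (n = 3) there and 57.6 to 133 CPM elsewhere.

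Arc had other neighbours. The 2 genes outside the set most like it were ENSRNOG00000007830 (r = 0.827, and 0.853 outside day 21) and ENSRNOG00000058186 (r = 0.784 both with and without day 21). ENSRNOG00000007830 measured 3.68 ± 1.77 CPM (SD, n = 4) at day 7 of immediate repair, 35.3 ± 15.3 CPM (n = 5) in control nerve and 85.2 ± 50.7 CPM (n = 3) at day 21 of delayed repair. For ENSRNOG00000058186 these were 79.3 ± 40.0, 297 ± 72.9 and 307 ± 106 CPM, so its delayed day 21 mean was near that of control. Among the 8, Fosb (rank 6, r = 0.759) and Nr4a1 (rank 8, r = 0.733) were the most like Arc, while Fos ranked 511 and Junb, with r = -0.00435, ranked 6355. Outside day 21 the r with Arc was 0.566 for Fosb, 0.60 for Nr4a1, 0.166 for Fos and -0.488 for Junb.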

How the data were processed

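The deposited table holds raw read counts per Ensembl gene ID, whole numbers, with replicates not pooled. Per the labels' protocols, libraries were made by poly(T) capture from 400 ng of total RNA without strand marking, so reads of overlapping antisense genes cannot be told apart. Tools named in the submitters' processing notes, without their roles, are DESeq2 1.38.3, featureCounts 1.5.0-p3 and HISAT2 2.0.5. The genome build is not given in the sources used here. Columns were matched to samples by library name. The 8 symbols came with the list of IDs. The RefSeq gene table matched 0 Ensembl IDs, so these pairs were not checked, and the lists of further immediate early genes and cell type markers, kept by symbol, were not used. The tissue was therefore not checked against markers. Members, lists and alternatives were chosen with earlier results of these data known.

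The test was edgeR 4.0.16 (R 4.3.3): filterByExpr (minimum count 10), TMM factors, 1 quasi-likelihood fit of all 30 libraries in 7 groups, and Benjamini-Hochberg adjustment over 16015 genes with a threshold of 0.05. Standard errors came from the test statistic. Alternatives used DESeq2 1.42.0, limma 3.58.1 voom with sample quality weights, relative log expression factors, no filter, only the compared groups, a block for the replicate number, and omission of single libraries. No pair of replicates agreed within sampling noise (in 51 pairs chi-square was at least 14.9 times its degrees of freedom). All 8 genes were described. By the rule for named genes, the 2 genes most like Fos and the 2 most like Arc were added.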

Additional observations from a re-analysis of the deposited data

Results flagged for a closer look

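In 48 groups of 4 or 5 libraries (8 genes in 6 groups), 2 had a library whose gap to the next, relative to the group's range on the log2 scale, exceeded Dixon's 95% critical value. Chance flags about 1 in 20 such groups. Nr4a1 measured 436 CPM in immediate day 14 replicate 3, against 52.1 CPM in the next library (ratio 0.918, critical value 0.829). Dusp1 measured 690.2 CPM in delayed day 7 replicate 1, against 88.1 CPM in the next (ratio 0.776, critical value 0.710). Both are libraries that were the highest of their group for all 8 genes.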

How the results depend on the processing

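No alternative called any of the 8 genes between delayed and immediate repair at day 7 or 14, or in the interaction. Against control at day 7 of immediate repair 3 or 4 genes were called throughout. The counts of called genes that moved by more than 1.5 times were these. DESeq2 called 2 in place of 1 for immediate day 14 against control, 4 in place of 2 for delayed day 7 against control, 2 in place of 0 for delayed day 14 against control, and 4 in place of 2 between days 7 and 14 of immediate repair. Limma voom called 2, 4, 3 and 0 in these comparisons, and 0 in place of 1 between days 7 and 14 of delayed repair. The fit of the compared groups alone called 2 for delayed day 14 against control, and 0 between days 7 and 14 of either repair. Without the filter on low counts the last of these was also 0. Leaving out 1 library at a time gave 1 to 3 for immediate day 14 against control, 2 to 5 for delayed day 7 against control, 0 to 1 for delayed day 14 against control, 1 to 3 between the days of immediate repair and 0 to 2 between those of delayed repair.

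Over all genes, the 114 calls of delayed against immediate day 7 became 7 without the filter, 15 with relative log expression scaling, 341 in DESeq2 and 0 in limma voom, with the block or with the compared groups alone, and 0 to 360 without 1 library. At day 14 the 0 calls became 7 in DESeq2 and 2 in limma voom, and in the interaction 97 in DESeq2 and 0 to 11 without 1 library. With the compared groups alone, 5404 and 5557 calls between days 7 and 14 of immediate and delayed repair became 3021 and 3347.

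Labels number the replicates, but these numbers do not pair the libraries by the criterion used: correlations of their deviations ran from -0.66 to 0.41 over 51 pairs, every pair was over 0.1 in 0 of 13 comparisons (delayed against immediate day 14 came nearest, at 0.0836, 0.41, 0.297 and 0.149), and every library correlated best with its own number in 0 of 13. With the replicate number as a block, calls between days 7 and 14 went from 2 to 1 in immediate and from 1 to 0 in delayed repair, and the interaction turned to -0.79 for Fosb and -0.13 for Atf3. No other count among the 8 changed with the block.

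Of 1248 refitted values of single genes, 58 changed sign, all of them of genes that had not passed the test; the cause was not tested. In limma voom these were, for delayed against immediate day 7, Fos -0.32, Fosb -0.15, Atf3 -0.17 and Dusp1 -0.61. At day 14 Nr4a1 turned to 0.28. Against control they were Fos 0.14 (immediate day 7), Fosb -0.82 (immediate day 14), Fos -0.18 (delayed day 7) and Fos 0.29 (delayed day 14). From day 7 to day 14 of delayed repair they were Fos 0.47 and Dusp1 0.30, and in the interaction Nr4a1 0.0805. Atf3 at immediate day 14 against control turned to 0.0322 without the filter and to 0.0335 with the compared groups alone. Leaving out 1 library gave these ranges that cross 0. Delayed against immediate day 7: Fos -0.57 to 1.25, Fosb -0.27 to 0.71, Junb -1.36 to 0.50, Atf3 -0.36 to 0.31, Egr1 -1.07 to 0.35, Dusp1 -1.29 to 0.62. Day 14: Fosb -1.04 to 2.72, Atf3 -0.20 to 0.55, Nr4a1 -1.12 to 1.46. Immediate day 7 against control: Fos -1.08 to 0.11. Immediate day 14 against control: Fosb -1.72 to 0.91, Atf3 -0.40 to 0.44. Delayed day 7 against control: Fos -1.06 to 0.76. Delayed day 14 against control: Fos -0.66 to 0.22, Fosb -0.82 to 1.68, Atf3 -0.22 to 0.60, Egr1 -0.61 to 0.31, Arc -0.18 to 0.35. Day 14 against day 7: Egr1 -0.19 to 0.77 in immediate repair, and Fos -0.80 to 0.68, Junb -1.002 to 0.00714 and Dusp1 -1.11 to 0.67 in delayed repair. Interaction: Fosb -1.37 to 2.39, Junb -0.0853 to 1.78, Atf3 -0.33 to 0.53, Nr4a1 -1.78 to 0.80.

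Depth limits Arc, with 0 to 33 counts per library at day 7 of immediate repair.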
